A study of Mus musculus with 2 samples.

Results

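Potassium channel genes were taken as every gene whose symbol begins with Kcn and that has at least 1 transcript annotated protein-coding, which gave 94 of the 55536 genes in the tables. Another 5 symbols with the same beginning were left out because they have no protein-coding transcript (Kcnab3os, Kcnd3os, Kcnmb4os1, Kcnmb4os2 and Kcnq1ot1). The members were sorted into subfamilies by the letters after Kcn and into 6 roles. Total RNA was sequenced from the left cerebral cortex of male mice aged 14 days of the strain B6CASTF1/J, a first-generation hybrid of C57BL/6 and CAST mice. The 2 libraries, replicate 1 and replicate 2, belong to 1 group, so no condition was compared and no p-value is given. Each was made from 300 ng of RNA. The labels speak of 3 males and name a single donor entry for both libraries, and do not say whether tissue was pooled or whether the libraries came from separate animals. The SD between them may therefore be technical or hold differences between animals or pieces of tissue, which cannot be told apart. Markers of neighbouring tissue differed between the libraries, as given below.

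Potassium channels let potassium ions leave the cell along their gradient and so set the resting potential and end the action potential. Voltage-gated channels open on depolarisation, calcium- and sodium-activated channels open when those ions rise inside the cell, inward rectifiers hold the membrane near the potassium equilibrium, and two-pore channels carry a background leak. Modifier subunits (Kcnf, Kcng, Kcns and Kcnv) form no channel alone and join Kcnb subunits, and auxiliary subunits bind the pore-forming proteins from the side or from the cytoplasm. All pore-forming subunits share a loop that holds the selectivity filter, a short signature centred on glycine, tyrosine or phenylalanine, and glycine. In bulk tissue, fewer cells of a type and less RNA per cell cannot be told apart.

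The coding sequence of the filter is shown for 11 sites of pore-forming members because it is what the channels have in common beyond their names. The motif was searched in frame, on the coding strand, in the longest complete coding sequence of each gene in GENCODE M21 (mm10), as GGNTACGGN, GGNTATGGN, GGNTTCGGN or GGNTTTGGN, 4 forms that do not overlap each other. It was found in all 77 pore-forming members and in none of the 17 auxiliary members, against 2893 of 21584 genes with a complete coding sequence (13.4%). Each line gives 27 bases, 5′ to 3′, with the 9 bases of the motif in capitals and 9 bases on either side.
Kcna2, codon 376: acaactgtaGGCTATGGAgacatggtt
Kcnc1, codon 402: acgacactgGGCTATGGAgacatgtat
Kcnd2, codon 372: acaacactgGGGTATGGCgacatggta
Kcnf1, codon 384: accacagtgGGCTATGGTgacatctac
Kcnh3, codon 478: accagtgtgGGCTTCGGCaacgtgtcc
Kcnj4, codon 135: acgaccattGGCTACGGGttccggtgt
Kcnk1, codon 119: tccaccacaGGCTATGGCcacacggtg
Kcnk2, codon 159: acaaccataGGATTTGGAaacatctcc
Kcnk2, codon 268: acgaccattGGATTTGGAgactacgtg
Kcnma1, codon 354: tctacagtgGGTTATGGGgacgtttat
Kcnt1, codon 297: tcaactgtgGGCTTCGGTgatgtgacg

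The second codon of the motif was uniform in some subfamilies and mixed in others. All matches in Kcna (8), Kcnb (2), Kcnc (4), Kcnd (3) and Kcnq (6) had the form GGNTA, as in Kcna2. In Kcnh 8 matches, 1 in each member, had the form GGNTT, and Kcnh4 held a further GGNTA match at codon 54. Both Kcnt members and Kcnu1 had GGNTT. In Kcnj 13 matches had GGNTA and 4 had GGNTT, and the GGNTT form was the one match held by Kcnj8 and Kcnj11, the subunits of ATP-sensitive channels. A match is not always a filter: Kcnq3 held one at codon 319 and another at codon 502, and Kcnj2 one at codon 144 and another at codon 29, while each of these subunits has a single pore loop. Two-pore subunits carry a pair of pore loops, and 11 of the 14 two-pore members held at least 2 matches, as Kcnk2 does above. At least 2 were also held by 2 inward rectifiers and 2 voltage-gated members, and by 489 of all 21584 genes with a complete coding sequence. Kcnk1, Kcnk6 and Kcnk7 held 1, which says only that these letters are not present again in frame. Among the two-pore matches 14 had GGNTT and 11 had GGNTA.

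The libraries held 28263266 and 30862848 expected counts in named genes, and a floor of 3 counts, used as the limit for a gene listed at 0, equals 0.106 CPM in replicate 1 and 0.0972 CPM in replicate 2 (counting error only). Defining markers of the labelled tissue were present. All 4 pan-neuronal markers reached 1 TPM in both libraries (summed level 1777 and 1898 TPM in replicates 1 and 2), as did all 4 excitatory, 5 inhibitory and 5 astrocyte markers. None of 4 cerebellar and none of 3 skeletal muscle markers reached 1 TPM in both libraries. By contrast, 4 of 5 thalamic markers did (summed level 46.3 and 43.65 TPM in replicates 1 and 2). So did 3 of 4 hippocampal markers (12.4 and 13.3 TPM). The libraries differed in markers of neighbouring tissue. All 11 markers of striatal projection neurons were higher in replicate 1 (summed level 621 TPM, against 176 TPM in replicate 2), and all 5 choroid plexus markers were higher in replicate 2 (123 TPM, against 32.4 TPM in replicate 1).

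Of the 94 members, 69 (73.4%) reached 1 TPM in both libraries, a level per length that may be compared between genes. Among all 21901 genes with a protein-coding transcript the share was 59.0%. The median level was 10.3 TPM over the 94 members and 3.81 TPM over those 21901 genes. A further 3 members reached 1 TPM in 1 library only (Kcnj13, Kcnh6 and Kcng4), and 22 reached it in neither. In the gene table Kcna10, Kcne1, Kcne3, Kcnj1, Kcnk7, Kcnk16 and Kcnk18 had 0 expected counts in both libraries, while the second transcript table gave 2 estimated counts to Kcne3 and 3.00 to Kcnj1 in replicate 1. By mean level, the lowest member inside the threshold was Kcnk6, with 1.60 and 1.58 TPM in replicates 1 and 2. In replicate 2 alone Kcna5 stood lower, at 1.45 TPM. Of the members under the threshold in both libraries, Kcnj14 had the highest mean, with 0.77 and 0.81 TPM. Together the members took 0.553% of the counts of replicate 1 and 0.594% of those of replicate 2, and the 10 highest held 38.5% and 37.96% of the members' summed TPM.

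**Figure D1:**
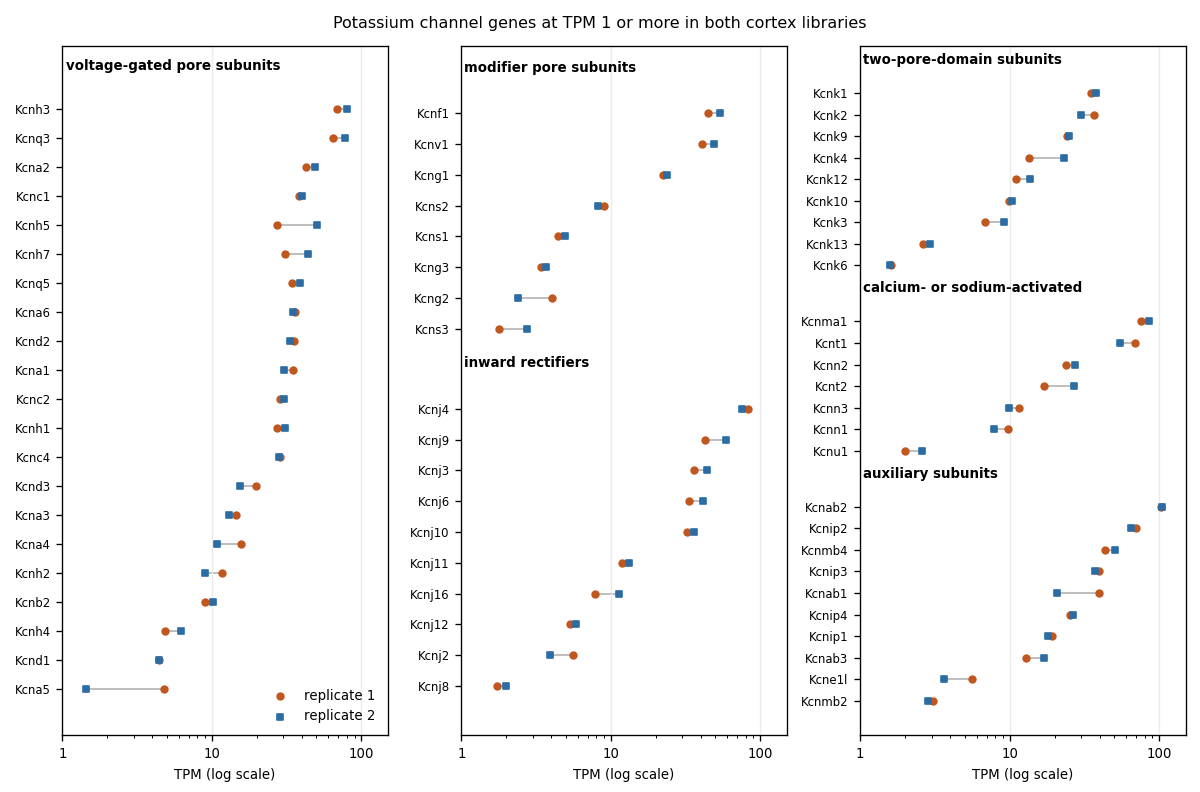
Level of the potassium channel genes in TPM on a log axis, for 65 of the 69 genes at 1 TPM or more in both libraries, grouped by role, with a circle for replicate 1 and a square for replicate 2 joined by a line. Kcnab2 leads at 102 and 104 TPM in replicates 1 and 2.

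Voltage-gated pore subunits were the largest role. Their 30 members, of which 25 reached 1 TPM in both libraries, summed to 771 TPM in replicate 1 and 835 TPM in replicate 2 (41.1% and 41.8% of the members' TPM). The Kcnh subfamily summed to 197 ± 34.6 TPM (SD, n = 2), Kcna to 144 ± 6.67 TPM and Kcnd to 56.4 ± 4.80 TPM.

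The Kcnq genes encode the slow, non-inactivating channels of the M-current, which muscarinic receptors close. Kcnq3 (chr15:65986387-66286642, mm10, minus strand) had 64.5 and 78.05 TPM in replicates 1 and 2, with a mean above 93.3% of genes with a protein-coding transcript. Kcnq5 had 34.5 and 39.0 TPM, below Kcnq3 in each library. Kcnq1, the cardiac and epithelial member, stayed under 1 TPM in both libraries.

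The Kcnh genes encode the EAG, ERG and ELK channels. Kcnh3, an ELK channel of the forebrain, had 68.7 and 79.7 TPM in replicates 1 and 2. The EAG channels Kcnh1 and Kcnh5 had 27.1 and 30.7 TPM for Kcnh1 and 27.3 and 50.5 TPM for Kcnh5, so they were close in replicate 1 and Kcnh5 was higher in replicate 2, and no direction is given for the pair. The ERG channel Kcnh7 had 31.0 and 44.1 TPM, a log2 ratio to Kcnh3 of -0.9986 ± 0.21. On expected counts this ratio was 0.35. Kcnh2, the ERG channel whose human counterpart carries a repolarising current of the heart, had 10.4 ± 1.92 TPM, and Kcnh4 5.57 ± 0.955 TPM. Kcnh6 and Kcnh8 did not reach 1 TPM in both libraries.

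Kcna channels sit mainly on axons and presynaptic terminals. Kcna2 had 42.6 and 48.7 TPM in replicates 1 and 2, Kcna6 36.2 and 34.8 TPM, and Kcna1 34.9 and 30.4 TPM. The log2 ratio of Kcna2 to Kcna1 was 0.48 ± 0.28, while Kcna6 and Kcna1 differed by less than the SD of Kcna1. Counting protein-coding transcripts alone, Kcna6 had 5.84 ± 5.66 TPM and rank 53 among the members, in place of rank 23. Those transcripts held 27.2% and 5.30% of Kcna6 in replicates 1 and 2, but 48.4% and 26.4% in the second transcript table. Kcna3 had 13.8 ± 1.04 TPM. Kcna4, the rapidly inactivating member, had 13.2 ± 3.53 TPM, with a log2 ratio to Kcna1 of -1.32 ± 0.25. Kcna7 and Kcna10 remained under 1 TPM in both libraries.

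Kcnc channels activate at strong depolarisation and close quickly, which lets fast-spiking neurons repolarise. Kcnc1 had 38.5 and 40.0 TPM in replicates 1 and 2, Kcnc2 28.7 and 30.5 TPM, and Kcnc4 28.4 and 28.1 TPM. Kcnc2 stood above Kcnc4 in both libraries, by about the SD of Kcnc2 (1.32 TPM). The log2 ratio of Kcnc1 to Kcnc2 was 0.41 ± 0.02. The delayed rectifier gene Kcnb2 had 9.58 ± 0.792 TPM. The A-type channel gene Kcnd2 had 35.6 and 33.3 TPM, Kcnd3 had 19.8 and 15.3 TPM (log2 ratio of Kcnd2 to Kcnd3 0.98 ± 0.19), and Kcnd1 had 4.44 TPM in replicate 1 and 4.43 TPM in replicate 2.

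**Figure D2:**
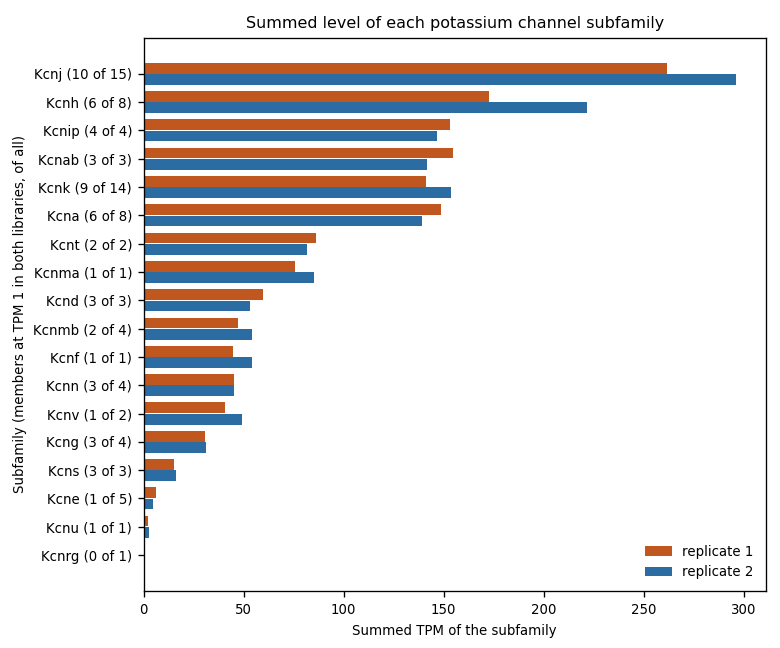
Summed TPM of 18 subfamilies by library, named by the letters after Kcn, with an orange bar for replicate 1 and a blue bar for replicate 2. Kcnj is the highest with 261 and 296 TPM in replicates 1 and 2.

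Modifier subunits were carried mainly by 3 genes. Kcnf1 had 44.5 and 54.0 TPM in replicates 1 and 2, Kcnv1 had 40.7 and 49.25 TPM, and Kcng1 had 22.5 and 23.9 TPM. Both Kcnf1 and Kcnv1 stood above Kcnb2 in each library. Kcnb2 is not the whole Kcnb subfamily, so this does not place the modifiers above their Kcnb partners. The other modifiers were lower, with Kcns2 at 8.59 ± 0.559, Kcns1 at 4.71 ± 0.361, Kcng3 at 3.56 ± 0.212, Kcng2 at 3.22 ± 1.16 and Kcns3 at 2.28 ± 0.672 TPM. Kcng4 and Kcnv2 did not reach 1 TPM in both libraries. The whole role summed to 131 TPM in replicate 1 and 150 TPM in replicate 2.

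Inward rectifiers made up the subfamily with the highest summed level, Kcnj, at 279 ± 24.5 TPM over 15 members, 10 of them at 1 TPM or more in both libraries. Kcnj4, a strong rectifier of forebrain neurons, led with 82.3 and 75.5 TPM in replicates 1 and 2. The related strong rectifiers were low, with Kcnj12 at 5.61 ± 0.396 and Kcnj2 at 4.78 ± 1.20 TPM. The G protein-gated subunits, which open after inhibitory neurotransmitter receptors are activated, came next. Kcnj9 had 42.7 and 59.2 TPM, Kcnj3 had 35.99 and 43.8 TPM, and Kcnj6 had 33.2 and 41.6 TPM, whereas Kcnj5, the subunit known from heart atrium, had 0.66 and 0.45 TPM. The 3 neuronal subunits kept 1 order in both libraries. The log2 ratio to Kcnj6 was 0.44 ± 0.11 for Kcnj9 and 0.10 ± 0.03 for Kcnj3.

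Kcnj10, the astrocyte and oligodendrocyte channel that takes up potassium released by neurons, had 32.4 and 36.2 TPM in replicates 1 and 2. Kcnj16, which joins it in mixed channels, had 7.80 and 11.3 TPM (log2 ratio of Kcnj10 to Kcnj16 1.86 ± 0.26). Summed astrocyte markers were at 405 and 396 TPM and summed oligodendrocyte markers at 906 and 591 TPM in the same libraries; their part in the level of Kcnj10 was not tested. Of the pore subunits of ATP-sensitive channels, Kcnj11 had 11.97 and 13.3 TPM and Kcnj8, known from pericytes and smooth muscle of vessels, had 1.74 and 2.00 TPM. Their sulfonylurea receptors ran in the same order, with Abcc8 at 15.6 ± 2.06 and Abcc9 at 4.11 ± 0.163 TPM. Kcnj1, Kcnj13, Kcnj14 and Kcnj15 did not reach 1 TPM in both libraries.

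Two-pore channels summed to 141 TPM in replicate 1 and 154 TPM in replicate 2, and 9 of 14 reached 1 TPM in both. Kcnk1 had 34.9 and 37.7 TPM. Kcnk2, a channel opened by stretch and fatty acids, had 36.4 and 29.9 TPM, so these 2 genes changed order between libraries and no direction is given. The acid-sensitive channels followed, with Kcnk9 at 24.7 ± 0.523 and Kcnk3 at 8.03 ± 1.66 TPM (log2 ratio of Kcnk3 to Kcnk9 -1.62 ± 0.27). Kcnk4, another stretch-sensitive channel, had 13.5 and 22.9 TPM. Of its exonic bases 587 overlap Catsperz on the same strand, a gene with 91.7 and 156 expected counts, so reads may have been divided between them. Kcnk12 (12.3 ± 1.89 TPM), Kcnk10 (10.2 ± 0.332 TPM), Kcnk13 (2.76 ± 0.212 TPM) and Kcnk6 were lower, and Kcnk5, Kcnk7, Kcnk15, Kcnk16 and Kcnk18 remained under 1 TPM in both libraries.

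Calcium- and sodium-activated channels had 7 of 8 members at 1 TPM or more in both libraries and summed to 209 TPM in replicate 1 and 214 TPM in replicate 2 (11.1% and 10.7% of the members' TPM). Counting protein-coding transcripts alone, their share was 8.38% and 8.72%. Kcnma1, the large-conductance calcium-activated channel, had 75.6 and 85.1 TPM in replicates 1 and 2. The sodium-activated channels were Kcnt1, with 69.0 and 54.8 TPM, and Kcnt2, with 17.1 and 26.7 TPM. Their log2 ratio was positive in both libraries (1.52 ± 0.69), but counting protein-coding transcripts alone it was -0.34. The small-conductance channels of the afterhyperpolarisation were Kcnn2, with 23.7 and 27.4 TPM, Kcnn3, with 11.4 and 9.86 TPM, and Kcnn1, with 8.74 ± 1.30 TPM. Kcnn2 exceeded Kcnn3 by 1.25 ± 0.30 on the log2 scale, a ratio that was -0.0434 on expected counts. Kcnn4, known from red blood cells and immune cells, did not reach 1 TPM. Kcnu1, known from sperm, had 51 and 59 expected counts in replicates 1 and 2 and 2.28 ± 0.410 TPM. It was counted in this role by its subfamily letter, and opening by calcium or sodium is not claimed for it.

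Auxiliary subunits, 10 of 17 of them at 1 TPM or more in both libraries, summed to 361 TPM in replicate 1 and 347 TPM in replicate 2 and included the highest of the 94 members. Kcnab2, a cytoplasmic beta subunit of Kcna channels (chr4:152390742-152477871, mm10, minus strand), had 102 and 104 TPM in replicates 1 and 2. Kcnab1 had 39.7 and 20.7 TPM and Kcnab3 had 12.9 and 16.8 TPM. The calcium-binding subunits of Kcnd channels were Kcnip2, with 69.4 and 65.1 TPM, Kcnip3, with 39.5 and 37.1 TPM, Kcnip4, with 25.1 and 26.6 TPM, and Kcnip1, with 19.1 and 18.05 TPM. Their sum, 150 ± 4.44 TPM, stood above the 56.4 ± 4.80 TPM of the Kcnd pore genes in both libraries.

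Kcnmb4, the beta subunit of the calcium-activated channel found in brain, had 43.6 and 50.9 TPM and held 93.2% of its subfamily's level. Kcnmb2 had 2.97 ± 0.148 TPM, and Kcnmb1 and Kcnmb3 remained under 1 TPM in both libraries. The log2 ratio of Kcnma1 to Kcnmb4 was 0.77 ± 0.04. Of the 5 Kcne genes only Kcne1l reached 1 TPM in both libraries, with 5.58 and 3.62 TPM. Kcnrg had 0.43 and 0.29 TPM.

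**Figure D3:**
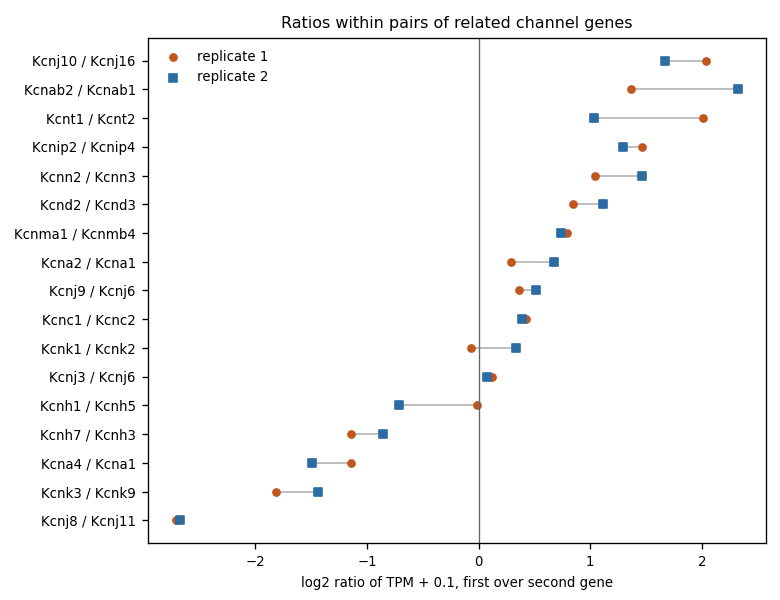
Log2 ratio of TPM + 0.1 within 17 pairs of related members, with a circle for replicate 1 and a square for replicate 2 joined by a line. In 11 pairs the first gene is higher in both libraries, in 4 the second, and 2 have no direction (Kcnk1 with Kcnk2, and Kcnh1 with Kcnh5).

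Other genes of the channel complexes were read from a list of 25 partners, and 22 of them reached 1 TPM in both libraries. The Kcnd partners Dpp6 and Dpp10 had 85.2 ± 4.14 and 52.1 ± 5.23 TPM. Amigo1, which joins Kcnb channels, had 24.8 ± 0.474 TPM, and the proteins that tether Kcnb channels to the endoplasmic reticulum, Vapa and Vapb, had 77.2 ± 0.311 and 51.7 ± 6.65 TPM. Genes that place Kcna channels beside the node of Ranvier were present, with Cntnap2 at 57.0 ± 2.28 and Cntn2 at 25.7 ± 1.58 TPM, as was Lgi1 at 53.5 ± 0.545 TPM. Of the gamma subunits of the Kcnma1 channel, Lrrc55 had 16.05 ± 0.226 TPM, Lrrc38 had 0.66 and 0.71 TPM in replicates 1 and 2, Lrrc52 had 1 count in replicate 1 and 0 in replicate 2, and Lrrc26 had 0 counts in both. Ank3, the scaffold that holds Kcnq channels at the axon initial segment, had 231 ± 17.2 TPM, and the calmodulin genes that serve Kcnq and Kcnn channels had 941 to 1041 TPM.

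Transcript make-up was read from the percent of each gene's TPM in each transcript. Of the 69 members at 1 TPM or more in both libraries, 13 have 1 annotated transcript, among them Kcnj4, Kcnf1, Kcnh5 and Kcnd2. Of the other 56, 45 (80.4%) had 1 transcript above 50% in both libraries, against 62.6% of 11704 protein-coding genes with at least 2 transcripts and the same minimum. The number of annotated transcripts per gene was not matched between these sets. The second transcript table named the same leading transcript for 47 of the 56.

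Among the highest members, Kcnma1-205 held 62.6% and 63.9% of Kcnma1 in replicates 1 and 2. Kcnh3-201 held 86.3% and 88.3% of its gene, Kcnip2-209 held 75.3% and 74.1%, and Kcnmb4-201 held 96.2% and 97.2%. Some genes were divided between a pair of coding transcripts in a ratio that was close in the 2 libraries. Kcnc1-201 had 60.9% and 61.5% with 37.98% and 38.5% in Kcnc1-203, and Kcnj3-201 had 76.5% and 74.3% with 19.7% and 22.8% in Kcnj3-203. Kcnab2 had no leader shared by the libraries, since Kcnab2-207 held 38.6% and 30.0% and Kcnab2-201 held 32.4% and 37.5%. In the second table Kcnab2-207 led in both libraries, with 54.1% and 35.4%.

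The transcript that led was not protein-coding in 2 of the 56 members, Kcnt1 and Kcna6, against 7.68% of the 11704 genes. In Kcnt1 (chr2:25863734-25918273, mm10) transcripts annotated as retained intron held 63.6% and 57.2% of the level in replicates 1 and 2, and protein-coding transcripts held 24.4% and 27.8%. The second table gave retained-intron shares of 60.2% and 54.2%. Protein-coding transcripts alone left Kcnt1 with 16.025 ± 1.11 TPM, rank 38 among the members in place of rank 9. In Kcna6, Kcna6-201, annotated as subject to nonsense-mediated decay, held 59.0% and 82.7%, and the coding Kcna6-204 held 27.2% and 5.30%. The second table put these at 46.5% and 67.1% for Kcna6-201 and at 46.8% and 21.8% for Kcna6-204, so both tables moved the same way between libraries while their shares differed.

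Retained-intron transcripts held over 20% of the level in both libraries for 4 members. Beside Kcnt1 these were Kcnn3, with 45.1% and 44.3%, Kcnv1, with 28.7% and 27.2%, and Kcnab3, with 26.2% and 44.4%. Over the 19 members that have such a transcript the median share was 11.1%, the same to 3 digits as in 7532 genes of the tissue (11.1%). The share of all genes over 20% was not taken, so the count of 4 members stands without a background. Short transcripts without a coding annotation held part of other leading genes, such as Kcnq3-202 with 17.6% and 20.7% of Kcnq3.

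**Figure D4:**
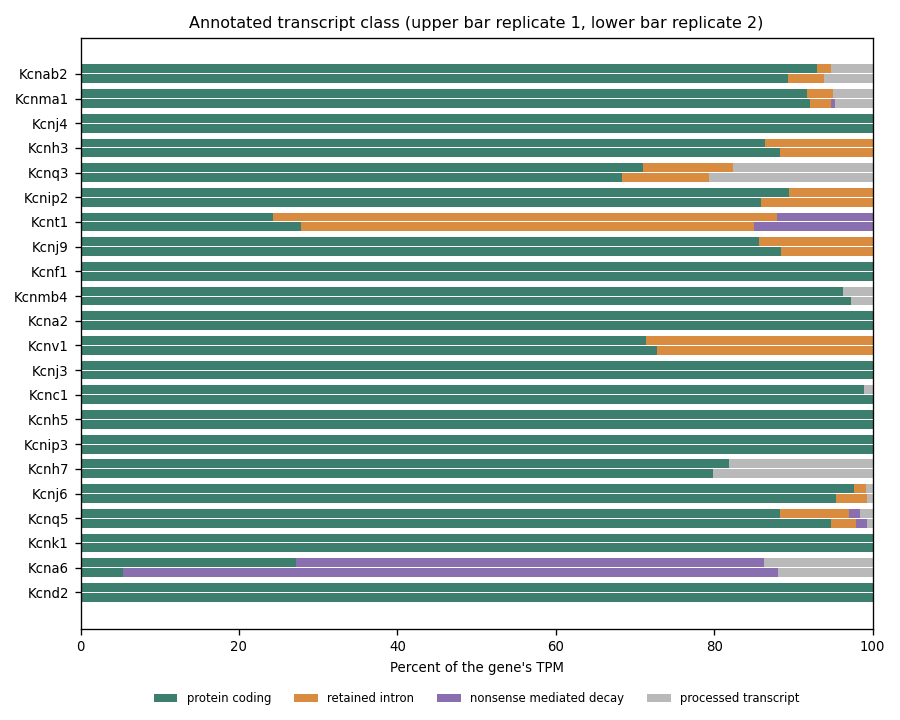
Percent of each gene's TPM in protein-coding, retained-intron, nonsense-mediated decay and processed transcripts for 22 of the 25 highest members, with the upper bar for replicate 1 and the lower for replicate 2. Kcnt1 and Kcna6 have the smallest protein-coding parts shown, at 24.4% and 27.8% for Kcnt1 and 27.2% and 5.30% for Kcna6.

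Alternative starts could be read for Kcnj6, whose RefSeq promoter windows (GRCm38.p6, 250 bases before to 50 after the start, minus strand) match different groups of transcripts. Of the 94 members 69 had a RefSeq window and 15 had more than 1. Both Kcnj6 windows are shown because the transcripts that start in them differed widely in level. Capitals mark CG dinucleotides, searched as CG, which reads the same on both strands. The first window is chr16:94997647-94997946 and the second chr16:94856641-94856940.
Kcnj6 first start: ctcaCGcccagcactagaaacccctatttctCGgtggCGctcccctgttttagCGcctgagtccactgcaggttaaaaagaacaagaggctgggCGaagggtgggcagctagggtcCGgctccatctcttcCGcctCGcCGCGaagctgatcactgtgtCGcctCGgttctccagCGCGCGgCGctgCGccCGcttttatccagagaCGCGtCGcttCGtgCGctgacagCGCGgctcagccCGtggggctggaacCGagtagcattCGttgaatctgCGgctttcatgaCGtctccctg
Kcnj6 second start: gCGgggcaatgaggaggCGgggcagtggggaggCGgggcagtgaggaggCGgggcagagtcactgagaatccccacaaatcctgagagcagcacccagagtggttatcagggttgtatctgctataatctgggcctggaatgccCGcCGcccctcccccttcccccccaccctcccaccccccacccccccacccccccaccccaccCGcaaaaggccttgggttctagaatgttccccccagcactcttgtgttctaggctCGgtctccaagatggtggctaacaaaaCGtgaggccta

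Transcripts from the first Kcnj6 start (Kcnj6-201, Kcnj6-202 and Kcnj6-205) held 94.9% and 92.6% of the gene's TPM in replicates 1 and 2, and those from the second (Kcnj6-203 and Kcnj6-207) held 3.33% and 3.49%. In the second table the shares were 88.7% and 87.9% for the first start and 8.99% and 9.40% for the second. The first window holds 30 CG, as many as or more than which 11.7% of all 32851 windows hold, and the second holds 9, a number reached by 45.8%. Over the members, the 48 with a window and at least 1 TPM in both libraries had a median of 15 CG. The 21 others with a window had 6. Each member was counted by 1 window, the one whose transcripts held most of its TPM. Where windows tied or held none, the one with the lowest genome coordinate was taken. All windows had a median of 7. Those were not limited to 1 per gene or chosen by level, so they are no matched background.

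Members that lie near each other in the genome could differ widely in level. Kcnj9 and Kcnj10 are 11.9 kb apart on chromosome 1, and both were well expressed, at 50.9 and 34.3 TPM. On chromosome 6, Kcna1 (32.7 TPM) lies between Kcna5 (3.10 TPM), 105.0 kb away, and Kcna6 (35.5 TPM), 61.9 kb away. On chromosome 3, Kcna2 (45.7 TPM) has Kcna3 (13.8 TPM) at 63.1 kb on one side and Kcna10, with 0 counts in both libraries, at 68.0 kb on the other. Kcnj6 (37.4 TPM) and Kcnj15 (0.18 TPM) are 259.9 kb apart on chromosome 16.

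The spread between the libraries was measured as the difference in log2 CPM, replicate 1 minus replicate 2, for the 18965 genes that had 10 or more expected counts in either library, 81 of them members. Over 2-fold differences were found in 2 members (2.47%), against 3.94% of all these genes and 2.69% of those with a protein-coding transcript. Of the 2, 1 was higher in replicate 1 and 1 in replicate 2, where 2.5% of all genes were over 2-fold higher in replicate 1 and 1.44% in replicate 2. When a minimum of 100 counts in either library was set, 1.02% of 12871 genes were over 2-fold, among them 1 member (Kcna5). Of the 81, 31 were higher in replicate 1 and 50 in replicate 2 (61.7%, against 49.9% of all genes). The median difference was -0.11 over the members and 0.00 over all genes, and the median absolute difference was 0.23 over the members and 0.14 over all genes. With 1 group of 2 libraries no test of these differences is possible.

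**Figure D5:**
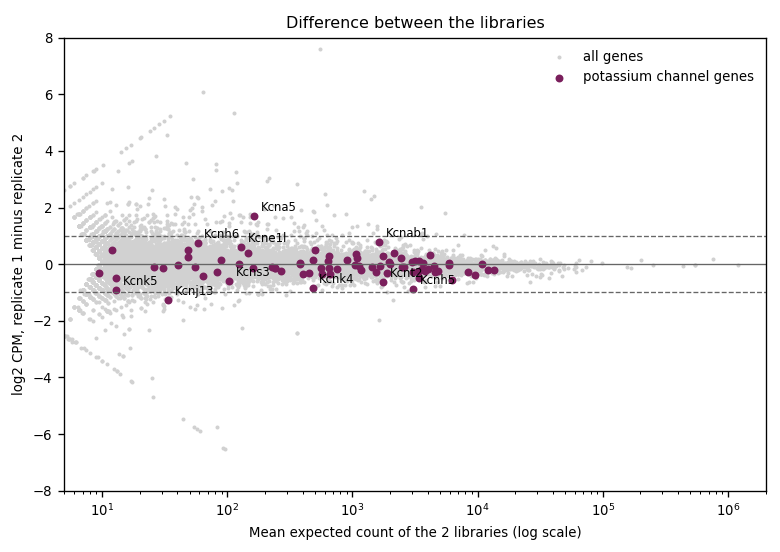
Difference in log2 CPM, replicate 1 minus replicate 2, against the mean expected count on a log axis, for all measured genes in grey and the 81 members in colour, with dashed lines at 2-fold. Kcna5 at 1.69 and Kcnj13 at -1.26 are the members beyond 2-fold.

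Kcna5 (chr6:126532551-126535412, mm10), a delayed rectifier known from heart and vessels, had 249 expected counts in replicate 1 (95% Poisson interval 219 to 282) and 81 in replicate 2 (64.3 to 101), a difference of 1.69. The second table gave 6.63 and 2.05 TPM in the same order of libraries. Among the 11 striatal projection neuron markers, all above 1 TPM in both libraries, 9 were more than 2-fold higher in replicate 1 and the median difference was 1.90. All 4 oligodendrocyte markers and 4 of 5 inhibitory neuron markers were also higher in replicate 1, with medians of 0.61 and 0.42. Their part in the difference of Kcna5 was not tested.

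Kcnj13 (chr1:87386363-87394729, mm10), a rectifier known from epithelia such as the choroid plexus, had 18 expected counts in replicate 1 (10.7 to 28.4) and 49 in replicate 2 (36.3 to 64.8), a difference of -1.26. The second table gave 1.10 and 2.67 TPM. All 5 choroid plexus markers were higher in replicate 2, 3 of them more than 2-fold, and 2 of the 5 reached 1 TPM in both libraries. Ttr, the transthyretin gene, had 30.4 TPM in replicate 1 and 118 TPM in replicate 2, and none of the 5 was at 0. Their part in the difference of Kcnj13 was not tested. On the opposite strand Gigyf2, with 2219 and 2500 expected counts, covers 49.1% of the exonic bases of Kcnj13, and whether counting used strand is not given in the sources used here.

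At 1.5-fold, a threshold chosen after the values were seen, 10 members differed (12.3%, against 11.0% of all genes). Beside Kcna5, those higher in replicate 1 were Kcnab1 (0.77), Kcnh6 (0.73) and Kcne1l (0.62). Beside Kcnj13, those higher in replicate 2 were Kcnk5 (-0.92), Kcnh5 (-0.88), Kcnk4 (-0.83), Kcnt2 (-0.63) and Kcns3 (-0.59). Direction by subfamily was counted for those with at least 3 measured members, where 49.9% of all genes and 61.7% of the members were higher in replicate 2. In replicate 2, 10 of 13 Kcnj, 8 of 10 Kcnk, 5 of 8 Kcnh, 4 of 5 Kcnq, 3 of 4 Kcnc, 3 of 4 Kcnmb, 3 of 4 Kcng and 2 of 3 Kcns members were higher. In replicate 1, 5 of 6 Kcna, 3 of 4 Kcnip, 3 of 3 Kcnd, 2 of 3 Kcnab and 2 of 3 Kcnn members were higher, the Kcnd differences running from 0.02 to 0.38. The 4 excitatory markers were also all higher in replicate 2, with a median of -0.36, and the pan-neuronal markers with a median of -0.13; their part was not tested. None of the 23 measured partner genes differed over 2-fold, and their differences ran from -0.30 to 0.14.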

How the data were processed

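Total RNA sequencing of 2 libraries was read from tables made by the authors. Per the file headers and accompanying text, the deposited expected counts (not normalized), TPM and percent of each transcript rest on alignments to the GENCODE M21 transcriptome (mm10); a second transcript table with estimated counts and TPM came from the reads. The sources used here do not give aligner, quantifiers or strand use, so antisense or overlapping genes and near-identical copies may share reads: 28 members overlap exons of another gene, 26 of them on the opposite strand, and 2 share over 5% of their 50-base stretches with other genes (Kcnj14 and Kcnk4). Entries that name no gene (0.404% and 0.387% of counts in replicates 1 and 2) were left out.

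Members, lists, pairs and tests were chosen with earlier results of these data known. Values were named for the 25 highest members, the highest of each subfamily, those over 2-fold apart, the fixed pairs and the fixed partners; other members were named with means after their values were seen. Expected counts were rounded, and log2 CPM was taken in edgeR 4.0.16 (R 4.3.3; TMM scaling, prior count 2) with steps tested on simulated data; DESeq2 1.42.0 gave alternative size factors. Pair ratios used TPM + 0.1, and a direction needed the same sign in both libraries and a mean above the SD. Python 3.11.15, pandas 2.3.3, numpy 2.4.6, scipy 1.17.1 and matplotlib 3.10.9 did the rest. Some members are counted but not reported here by name, and pairs that hold them were left out. With 1 group no p-value was computed.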

Additional observations from a re-analysis of the deposited data

How the results depend on the processing

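Of 69 members at 1 TPM in both libraries, the count was 73 in the second table, 75 at 0.5 TPM, 75 with TPM rescaled to protein-coding genes, and 70 to 71 on 1 library alone. It stayed at 69 on protein-coding transcripts alone and in the second table scaled by its median ratio. The median level of 10.3 TPM was 14.6 in the second table, 20.98 rescaled to protein-coding genes, 9.01 on protein-coding transcripts alone, 9.44 in the second table scaled by its median ratio, and 10.27 to 10.4 on 1 library. The last scaling and the protein-coding transcripts were chosen after seeing the data. The 2 members over 2-fold became 5 with no filter, 1 with at least 100 counts, where fewer genes are measured, 3 with a prior count of 0.5, and stayed at 2 with DESeq2 size factors, library size alone or the second table. The 45 members with a leading transcript were 20 at a threshold of 75% and 46 to 49 on 1 library. Of the pair ratios, Kcnn2 to Kcnn3 (-0.0434) and Kcnh7 to Kcnh3 (0.35) reversed on expected counts, which carry no correction for length, and Kcnt1 to Kcnt2 (-0.34) on protein-coding transcripts, which leave out the retained-intron part of Kcnt1. The 11 pairs with the first gene higher were 10 in the second table, 11 on counts, and 11 to 12 on 1 library. No paired analysis was possible because both libraries belong to 1 group. With 2 libraries an SD rests on a single difference, and levels under 1 TPM rest on few counts.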
